A study of Mus musculus with 6 samples.

Results

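The heat shock chaperones are proteins that hold or refold other proteins. This account covers 10 of their genes, *Hspa1a*, *Hspa1b*, *Dnajb1*, *Hsph1*, *Hspb1*, *Hsp90aa1*, *Bag3*, *Hspa8*, *Hspd1* and *Hspe1*, found by gene name among the 57462 genes of the deposited tables. Each name matched 1 entry. The transcripts were measured by RNA sequencing of whole tumours grown from HM1, a line labelled as a murine ovarian cancer cell, in an early tumour model. Of 6 tumours, 3 carried a short hairpin RNA against the sialyltransferase ST3GAL3 (shST3GAL3, genotype labelled ST3GAL3 knockdown) and 3 carried a control hairpin (shControl, genotype labelled wild type). All 6 share the same cell line and tissue label. The sources used here give no host strain, age or hairpin sequence, and do not say whether animals or cell clones were pooled.

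When proteins unfold, heat shock factor 1 (HSF1) is released from chaperones, binds heat shock elements in front of chaperone genes and raises their transcription. Inducible members such as *Hspa1a* are nearly silent in resting cells, whereas constitutive members such as *Hspa8* are abundant at all times. Tumour cells are known to lean on this machinery under crowding and loss of oxygen. By textbook roles, *Hspa1a*, *Hspa1b*, *Dnajb1*, *Hsph1*, *Hspb1*, *Hsp90aa1* and *Bag3* are treated here as the 7 inducible genes, and *Hspa8*, *Hspd1* and *Hspe1* as the 3 constitutive ones.

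Promoter windows are shown for the genes whose transcripts moved most or share a start region. They run 5′ to 3′ on the gene's strand, from 250 bases before to 50 bases after the start, and come from RefSeq on GRCm38.p6, another build than that of the expression tables. Capitals mark pairs of heat shock element units, GAANNTTC or TTCNNGAA, where N is any base. Each pattern reads the same on either strand, and neighbouring pairs can overlap.
Hspa1a, chr17:34972107-34972406, minus strand: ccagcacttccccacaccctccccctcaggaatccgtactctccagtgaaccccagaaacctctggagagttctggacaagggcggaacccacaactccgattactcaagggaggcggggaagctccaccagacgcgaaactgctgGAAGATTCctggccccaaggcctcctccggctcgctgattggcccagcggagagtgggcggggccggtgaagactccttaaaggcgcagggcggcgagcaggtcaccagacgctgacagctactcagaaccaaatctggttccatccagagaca
Hspa1b, chr17:34959189-34959488, minus strand: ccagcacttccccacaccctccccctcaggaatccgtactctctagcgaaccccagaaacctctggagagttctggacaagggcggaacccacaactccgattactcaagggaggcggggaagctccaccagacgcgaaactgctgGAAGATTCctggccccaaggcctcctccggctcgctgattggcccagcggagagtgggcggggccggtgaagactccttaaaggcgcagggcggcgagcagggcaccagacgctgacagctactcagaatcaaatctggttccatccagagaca
Hspb1, chr5:135887669-135887968, plus strand: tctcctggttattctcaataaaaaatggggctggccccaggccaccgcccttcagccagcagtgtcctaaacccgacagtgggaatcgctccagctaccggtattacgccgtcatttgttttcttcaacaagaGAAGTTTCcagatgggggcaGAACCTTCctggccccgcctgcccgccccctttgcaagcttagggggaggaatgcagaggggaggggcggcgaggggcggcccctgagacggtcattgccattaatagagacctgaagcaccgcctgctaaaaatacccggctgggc
Hspe1, chr1:55087898-55088197, plus strand: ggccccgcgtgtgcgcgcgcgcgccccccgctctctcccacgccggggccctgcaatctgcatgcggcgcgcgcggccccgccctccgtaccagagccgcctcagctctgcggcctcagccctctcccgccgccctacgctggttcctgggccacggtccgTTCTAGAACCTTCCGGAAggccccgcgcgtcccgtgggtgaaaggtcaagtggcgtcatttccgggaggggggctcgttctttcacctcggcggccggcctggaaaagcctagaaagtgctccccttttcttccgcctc
The windows of *Hspa1a* and *Hspa1b* matched at 296 of 300 bases, or 98.7%. Both held 1 pair, 104 to 97 bases before the start (positions -104 to -97), and *Hspb1* held 2, at -117 to -110 and -97 to -90. The *Hspe1* window held 3 overlapping pairs in 1 unbroken run from -89 to -72.

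A promoter was found for 8 of the 10 genes, all but *Hspa8* and *Hsp90aa1*. At least 1 pair was present in 8 of their 11 windows, against 15.1% of the 32851 promoter windows of that table. By gene, with any window counted, it was 7 of 8, against 17% of 27025 genes, and *Hspd1* and *Hspe1* hold the same element. The 2 windows of *Hsph1* overlap and hold the same matches. The genes were chosen as driven by HSF1, so more matches than over all promoters were likely beforehand, and these shares are descriptions. A longer match of 3 units in a row (GAANNTTC continued by NNGAA), searched on both strands and overlapping the pairs, was present in 0.603% of all windows. It was found for *Hsph1*, *Hspd1* and *Hspe1*. For *Hsph1* it lay after the start, at 36 to 48 from 1 listed start and 15 to 27 from the other. Another *Hsph1* pair lay before the start, at -33 to -26 and -54 to -47. The single *Bag3* pair lay after the start, at 42 to 49. *Hspd1* and *Hspe1* lie head to head, and 285 bases of the *Hspe1* window are also in the window of 1 of the 2 listed *Hspd1* starts, 216 bases away. The 2 windows of *Dnajb1* held no pair of these letters. These are matches of letters, and binding of HSF1 was not measured.

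The values are TPM, a share of the transcripts in a library corrected for gene length, so levels can be compared between genes. *Hspa8*, the constitutive HSP70 of the cytosol, was the most abundant of the 10 in every library and made up 58.3% to 67.4% of their summed TPM in shST3GAL3 tumours, against 63.8% to 68.0% in shControl tumours. *Hspa1a* and *Hspa1b* were the least abundant in every library. In shControl tumours the order of mean levels was *Hspa8*, *Hsp90aa1*, *Hspd1*, *Hspe1*, *Hspb1*, *Hsph1*, *Bag3*, *Dnajb1*, *Hspa1b*, *Hspa1a*, and only *Hspb1* with *Hsph1* and *Hspa1b* with *Hspa1a* overlapped as neighbours. In shST3GAL3 tumours *Hspb1* had the second highest mean, but its values overlapped those of *Hsp90aa1*, as did those of *Hsp90aa1* with *Hspe1*, *Hspe1* with *Hspd1*, *Bag3* with *Dnajb1* and *Hspa1b* with *Hspa1a*. The 10 genes together summed to 3180.2, 3220.0 and 3414.9 TPM in shST3GAL3 1, 2 and 3, against 3030.6, 2850.3 and 2947.8 TPM in shControl 1, 2 and 3. The sums did not overlap. Without *Hspa8* they did, at 1326.2, 1051.3 and 1147.2 TPM in shST3GAL3 against 1054.3, 911.4 and 1066.6 TPM in shControl tumours. Without *Hspa8* and *Hspb1* the sums were 873.1, 913.7 and 825.0 TPM in shST3GAL3 against 882.8, 804.3 and 909.7 TPM in shControl tumours.

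**Figure D1:**
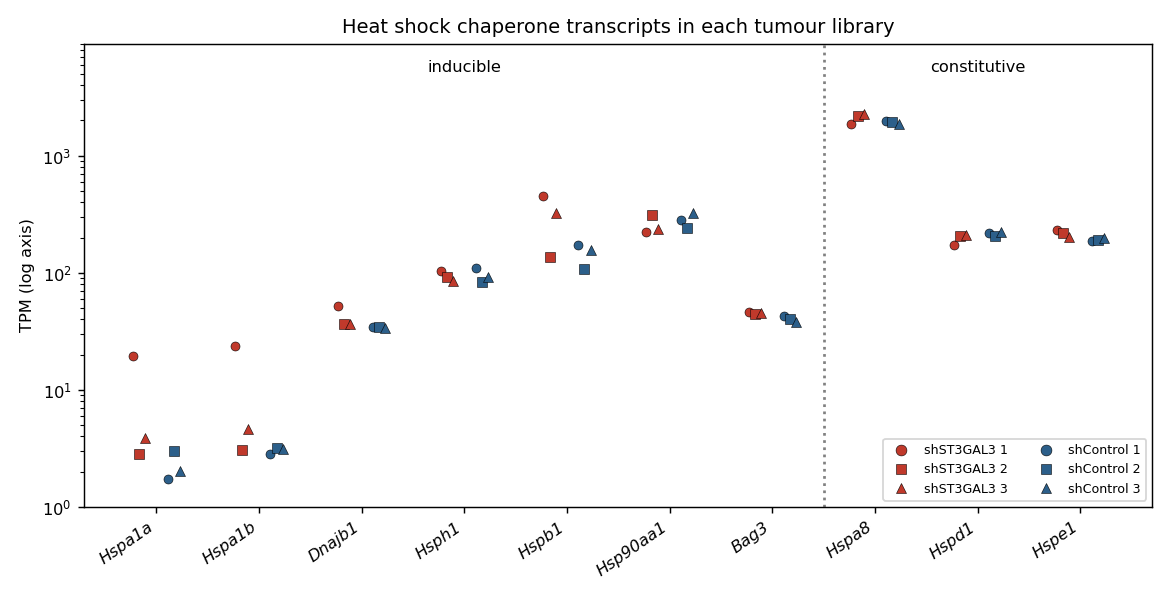
TPM on a log axis of the 10 chaperone genes in each library, with 3 shST3GAL3 tumours (red, left) and 3 shControl tumours (blue, right) per gene and the replicate shown by the symbol. *Hspa1a* and *Hspa1b* stand at 19.34 and 23.89 TPM in shST3GAL3 1 and at or below 4.61 TPM elsewhere.

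Group differences were tested with limma on log2(TPM + 1) over the 14207 genes with at least 1 TPM in 3 or more libraries, with Benjamini-Hochberg adjustment over all of them. All 10 chaperone genes were tested. At an adjusted p under 0.05, 0 of the 10 were called, against 0.00704% of all genes, which is 1 gene, the predicted *Gm1943*, lower in shST3GAL3 tumours. At an unadjusted p under 0.05, 0 of 10 were called, against 9.19% of all genes higher and 3.78% lower (1305 and 537 genes). This count of 0 was not stable: it was 3 without shST3GAL3 2 (*Hspa1a*, *Hspa1b* and *Hspb1*), 2 with library weights (*Hspa8* and *Hspe1*), 2 without the filter on low values (*Bag3* and *Hspe1*), and 1 each with the replicate block (*Hspb1*), without shST3GAL3 1 (*Hspa8*) and without shST3GAL3 3 (*Hspe1*). The split over all genes depended on scaling, with 969 higher and 821 lower after median-ratio scaling and 880 and 960 after quantile normalization. The adjusted p of the 10 lay between 0.394 and 0.963. For 3 of them, *Dnajb1*, *Bag3* and *Hspe1*, all 3 shST3GAL3 values were above all 3 shControl values, as for 15.7% of all genes, and for 0 of them they were all below, as for 7.76%. The labels do not say whether the tumours grew in separate mice, so p-values cover the spread among these libraries alone, part of which may be technical. TPM keeps no read counts, and depth is unknown.

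St3gal3 itself stood at 8.44, 6.77 and 7.49 TPM in the shST3GAL3 tumours and at 14.03, 13.84 and 13.79 TPM in the shControl tumours, with no overlap (log2 fold change -0.80, SE 0.11, limma adjusted p = 0.348). Of the epithelial markers, *Krt8* stood at 728.22 to 1227.06 TPM in shST3GAL3 and 1155.84 to 1295.2 TPM in shControl tumours. *Epcam* reached no more than 1.17 TPM in shST3GAL3 and 0.31 TPM in shControl tumours, and *Muc16* was listed at 0 in all 6 libraries, whereas *Msln*, the mesothelial and ovarian antigen mesothelin, stood at 13.64 to 19.78 TPM in shST3GAL3 and 15.36 to 16.77 TPM in shControl tumours. *Cdh1*, E-cadherin, stood at 9.46, 2.58 and 2.89 TPM in shST3GAL3 and 2.44 to 3.14 TPM in shControl tumours. The library shST3GAL3 1 stood apart in its stromal markers: its 8 fibroblast markers had a median of 2.92 log2 units above the shControl mean, against 1.18 and 0.60 in shST3GAL3 2 and 3.

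The inducible HSP70 genes were high in 1 tumour. *Hspa1a* and *Hspa1b* encode the stress-induced form of HSP70, the ATP-driven chaperone that binds exposed hydrophobic stretches. *Hspa1a* stood at 19.34, 2.85 and 3.90 TPM in shST3GAL3 1, 2 and 3, against 1.73, 3.02 and 2.03 TPM in shControl 1, 2 and 3. *Hspa1b* stood at 23.89, 3.07 and 4.61 TPM in the shST3GAL3 tumours, against 2.82, 3.20 and 3.15 TPM in the shControl tumours. In both genes shST3GAL3 1 was far above the rest, shST3GAL3 3 was slightly above the control range, and shST3GAL3 2 was inside it, so the groups overlapped. Against the shControl mean, shST3GAL3 1 was 8.56 times as high for *Hspa1a* and 7.82 times as high for *Hspa1b*.

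The group means were 8.70 ± 9.23 TPM in shST3GAL3 and 2.26 ± 0.675 TPM in shControl tumours for *Hspa1a* (SD, n = 3 each). The log2 fold change was 1.18 (SE 0.61, limma adjusted p = 0.418), and it was 0.43 without shST3GAL3 1 and 0.51 with library weights. For *Hspa1b* it was 1.03 (SE 0.63, limma adjusted p = 0.474), and it was 0.24 without shST3GAL3 1 and 0.28 with library weights. The SD of *Hspa1a* among shST3GAL3 tumours was 1.30 log2 units, and 1.28% of all tested genes had an SD as large there. Among shControl tumours its SD was 0.29, reached by 12.9% of genes. For *Hspa1b* the SD was 1.39 among shST3GAL3 tumours, reached by 1.0% of genes, and 0.07 among shControl tumours, reached by 71.6%.

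The 2 genes are neighbours on chromosome 17, beside *Hspa1l*, and a stretch of 2200 nt of their transcripts in GENCODE M21 was 99.1% identical. Reads could therefore have been divided between them by estimation, and the values of each alone are uncertain. Summed into 1 entry, chosen after seeing the data, they had a log2 fold change of 1.18 (SE 0.65, limma adjusted p = 0.437). *Hspa1l*, a relative expressed mainly in testis, stood at 1.60, 1.07 and 2.02 TPM in shST3GAL3 and 2.14, 1.57 and 1.70 TPM in shControl tumours. It lacked the high value in shST3GAL3 1.

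*Hspa8*, which folds new proteins and uncoats clathrin in resting cells, showed no such peak. It stood at 1853.96, 2168.68 and 2267.7 TPM in shST3GAL3 1, 2 and 3, against 1976.3, 1938.94 and 1881.12 TPM in shControl 1, 2 and 3. The tumour with the most *Hspa1a* thus had the least *Hspa8*, while the other two shST3GAL3 tumours were above the control range. The log2 fold change was 0.11 (SE 0.09, limma adjusted p = 0.575). It was 0.20 without shST3GAL3 1 and 0.05 without shST3GAL3 3. A processed pseudogene, *Gm15459*, was 99.7% identical to *Hspa8* over 1941 nt. It was listed at 503.16, 538.33 and 543.38 TPM in shST3GAL3 and 491.84, 494.11 and 479.04 TPM in shControl tumours, so the *Hspa8* level is uncertain by that amount. With both summed, the log2 fold change was 0.11 (SE 0.09).

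Within a library, the ratio of inducible to constitutive HSP70 does not depend on scaling. *Hspa1a* plus *Hspa1b* came to 2.33%, 0.273% and 0.375% of *Hspa8* in shST3GAL3 1, 2 and 3, against 0.230%, 0.321% and 0.275% in shControl 1, 2 and 3. The mean log2 ratio was -7.33 ± 1.67 in shST3GAL3 and -8.52 ± 0.24 in shControl tumours (SD, n = 3 each), a difference of 1.18. Without shST3GAL3 1 the difference was 0.23.

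**Figure D2:**
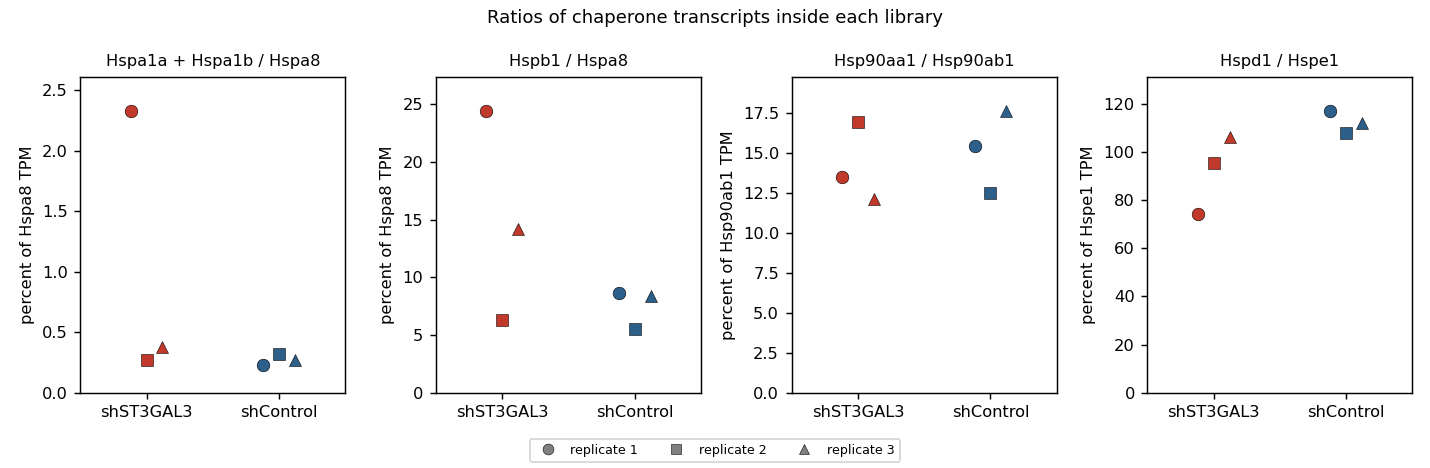
Ratios of TPM inside each library, as percent of the second gene, in 3 shST3GAL3 tumours (red, left) and 3 shControl tumours (blue, right), with axes from 0. The ratio of *Hspa1a* plus *Hspa1b* to *Hspa8* is 2.33% in shST3GAL3 1 and at or below 0.375% in the other libraries. The ratio of *Hspd1* to *Hspe1* lies below the control range in all 3 shST3GAL3 tumours, with 106% in shST3GAL3 3 close to 108% in shControl 2.

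The partners of HSP70 differed among themselves. *Dnajb1*, the J-domain protein that loads clients onto HSP70 and starts ATP hydrolysis, stood at 52.08, 36.19 and 36.20 TPM in shST3GAL3 tumours, against 34.21, 34.58 and 33.71 TPM in shControl tumours. Its groups did not overlap, but shST3GAL3 2 and 3 lay just above the highest control. The means were 41.5 ± 9.17 TPM in shST3GAL3 and 34.2 ± 0.437 TPM in shControl tumours (SD, n = 3 each). The log2 fold change was 0.25 (SE 0.15, limma adjusted p = 0.459), and 0.08 without shST3GAL3 1. Per *Hspa8*, *Dnajb1* came to 2.81%, 1.67% and 1.60% in shST3GAL3 tumours, against 1.73%, 1.78% and 1.79% in shControl tumours.

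*Bag3*, a nucleotide exchange factor that steers HSP70 clients to autophagy, stood at 46.41, 44.43 and 45.02 TPM in shST3GAL3 tumours, against 42.38, 40.60 and 38.24 TPM in shControl tumours. All 3 shST3GAL3 values were above the controls, and shST3GAL3 1 did not stand out. The means were 45.3 ± 1.02 TPM in shST3GAL3 and 40.4 ± 2.08 TPM in shControl tumours (SD, n = 3 each), with a log2 fold change of 0.16 (SE 0.07, limma adjusted p = 0.396). Leaving out any 1 library left it between 0.12 and 0.20. Per *Hspa8*, *Bag3* came to 2.5%, 2.05% and 1.99% in shST3GAL3 tumours, against 2.14%, 2.09% and 2.03% in shControl tumours. These ratios overlapped.

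*Hsph1*, the HSP110 exchange factor that works with HSP70 on aggregates, stood at 103.41, 92.85 and 84.47 TPM in shST3GAL3 tumours, against 110.03, 83.52 and 91.19 TPM in shControl tumours. All 3 shST3GAL3 values were inside the control range. The log2 fold change was -0.02 (SE 0.13, limma adjusted p = 0.963) and turned positive without shST3GAL3 3 or shControl 1, so no direction can be given.

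*Hsp90aa1*, the inducible HSP90 that keeps kinases and steroid receptors in shape, had a mean of 257 ± 46.6 TPM in shST3GAL3 and 282 ± 40.4 TPM in shControl tumours (SD, n = 3 each). It stood at 223.43, 310.34 and 237.62 TPM in shST3GAL3 tumours, against 282.5, 241.15 and 321.94 TPM in shControl tumours. The groups overlapped, and shST3GAL3 1, the tumour with the most *Hspa1a*, had the lowest value of all 6. The log2 fold change was -0.14 (SE 0.16, limma adjusted p = 0.688) and turned to 0.02 with library weights. It was -0.28 without shST3GAL3 2 and -0.24 without shControl 2, and -0.04, -0.09 and -0.04 without shST3GAL3 1, shST3GAL3 3 and shControl 3. The constitutive *Hsp90ab1* was far more abundant, at 1655.57, 1836.44 and 1961.01 TPM in shST3GAL3 and 1836.65, 1923.62 and 1824.96 TPM in shControl tumours. *Hsp90aa1* came to 13.5%, 16.9% and 12.1% of it in shST3GAL3 tumours, against 15.4%, 12.5% and 17.6% in shControl tumours. These ratios overlapped, and the sign of their mean log2 difference, -0.10, turned without shST3GAL3 3 or shControl 3.

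*Hspb1*, the small heat shock protein that holds unfolded clients without ATP and binds actin, was high in 2 of 3 shST3GAL3 tumours. It stood at 453.18, 137.55 and 322.18 TPM in shST3GAL3 1, 2 and 3, against 171.49, 107.07 and 156.93 TPM in shControl 1, 2 and 3. Replicates 1 and 3 of shST3GAL3 were above every control, at 3.12 and 2.22 times the control mean, and replicate 2 lay inside the control range. The means were 304 ± 159 TPM in shST3GAL3 and 145 ± 33.8 TPM in shControl tumours (SD, n = 3 each). The log2 fold change was 0.93 (SE 0.43, limma adjusted p = 0.399). It was 0.56 without shST3GAL3 1, 1.42 without shST3GAL3 2 and 0.33 with library weights. Only 3.5% of genes had an SD as large as its 0.88 log2 units among shST3GAL3 tumours. Among shControl tumours its SD of 0.36 was reached by 8.58% of genes.

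*Hspd1* and *Hspe1* encode HSP60 and HSP10, the barrel and the lid of the mitochondrial chaperonin. They share the start region shown above, and their fold changes had opposite signs. *Hspe1* stood at 231.9, 217.05 and 201.03 TPM in shST3GAL3 tumours, against 188.6, 191.65 and 197.93 TPM in shControl tumours. Its groups did not overlap, with a log2 fold change of 0.17 (SE 0.07, limma adjusted p = 0.394). *Hspd1* stood at 172.61, 206.94 and 212.14 TPM in shST3GAL3 tumours, against 220.5, 206.57 and 221.53 TPM in shControl tumours, with shST3GAL3 1 the lowest. Its log2 fold change was -0.14 (SE 0.09, limma adjusted p = 0.519), and -0.04 without shST3GAL3 1.

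Neither gene passed the test. *Hspd1* came to 74.4%, 95.3% and 106% of *Hspe1* in shST3GAL3 1, 2 and 3, against 117%, 108% and 112% in shControl 1, 2 and 3. These ratios did not overlap, but 106% and 108% lay close together. The share of gene pairs whose ratios separate in this way was not computed. The mean log2 ratio was -0.14 ± 0.26 in shST3GAL3 and 0.17 ± 0.06 in shControl tumours (SD, n = 3 each), a difference of -0.30. Without shST3GAL3 1 it was -0.16. The other listed start of *Hspd1* lies 95 bases inside *Hspe1*, on the opposite strand, and the strand setting of the counting is not given. Reads from any overlap could thus not be told apart.

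**Figure D3:**
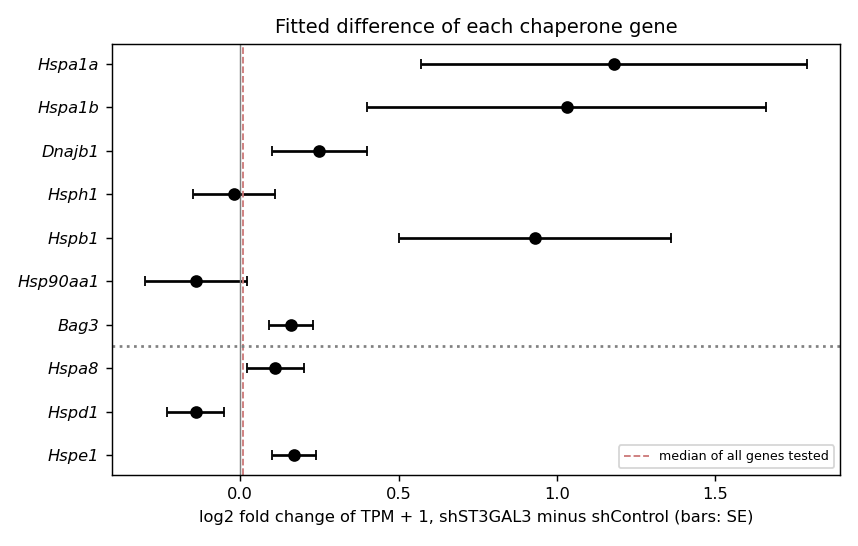
Log2 fold change of TPM + 1, shST3GAL3 minus shControl (n = 3 each), for each chaperone gene, with the moderated SE as bars and the median of all tested genes as a dashed line. *Hspa1a*, *Hspa1b* and *Hspb1* have the largest values, 1.18, 1.03 and 0.93, and also the widest bars.

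As a group, the 7 inducible genes had a median of 0.25 in log2 fold change (range -0.14 to 1.18), the 3 constitutive ones 0.11 (range -0.14 to 0.17) and all tested genes 0.01. Of the inducible genes 5 had positive and 2 negative values, and of the constitutive ones 2 and 1. Over all 14207 tested genes these counts were 7481 and 6726. By library, the inducible median stood 0.59, 0.08 and 0.15 log2 units above the shControl mean in shST3GAL3 1, 2 and 3, against 0.01, 0.01 and -0.02 in shControl 1, 2 and 3. The constitutive median was -0.06, 0.17 and 0.06 in the shST3GAL3 tumours and 0.03, -0.01 and 0.04 in the shControl tumours. The inducible median was 0.14 without shST3GAL3 1, and the constitutive median was 0.05 without shST3GAL3 3.

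*Hsf1*, which encodes the master factor, varied little. It stood at 40.22, 40.66 and 40.19 TPM in shST3GAL3 tumours, against 40.48, 40.89 and 41.94 TPM in shControl tumours. Of the 7 genes listed as factors and regulators, 6 were tested and 0 were called, with a median of 0.09 in log2 fold change, which was 0 after quantile normalization. *Ier5*, which binds HSF1 and raises its activity, had the smallest p of them, at 38.86, 39.42 and 40.49 TPM in shST3GAL3 and 36.92, 34.67 and 34.85 TPM in shControl tumours (log2 fold change 0.15, SE 0.07). *Hsbp1*, which encodes an HSF1-binding protein, stood at 142.05, 125.44 and 119.59 TPM in shST3GAL3 and 119.35, 114.98 and 119.48 TPM in shControl tumours. Both had all 3 shST3GAL3 values above all 3 shControl values, 2 of the 6 tested, against 15.7% of all genes. HSF1 acts mainly through its protein, which was not measured.

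Across the 8 lists of other chaperone families, 0 genes passed in either direction. Medians of the log2 fold change lay close to that of all genes in the other HSP70 and HSP110 genes (-0.03, 7 of 8 tested), the HSP90 co-chaperones with *Hsp90ab1* (-0.04, 13 of 13), the J-domain proteins (-0.01, 11 of 11), the HSP70 co-chaperones (-0.06, 10 of 10) and the mitochondrial chaperones and proteases (-0.07, 10 of 10). *Unc45a*, a myosin chaperone that works with HSP90, stood at 30.58, 21.75 and 25.35 TPM in shST3GAL3 and 15.82, 18.36 and 18.59 TPM in shControl tumours (log2 fold change 0.52, SE 0.14, limma adjusted p = 0.38). *Ppid*, a prolyl isomerase bound to HSP90, was on the other side, at 48.57, 68.4 and 60.57 TPM in shST3GAL3 and 70.78, 74.98 and 72.66 TPM in shControl tumours (-0.31, SE 0.13). *Bag2*, which inhibits the HSP70 partner CHIP, stood at 29.89, 44.80 and 44.74 TPM in shST3GAL3 and 47.38, 51.35 and 47.25 TPM in shControl tumours. The groups did not overlap in these 3 genes, each among the 3 with the smallest p of its list. *Bag1*, of the same list as *Bag2* and with a slightly smaller p, was higher without overlap (0.12, SE 0.06). So was the J-domain gene *Dnaja4*, at 5.73, 5.18 and 2.95 TPM in shST3GAL3 and 2.84, 2.07 and 2.53 TPM in shControl tumours (0.66, SE 0.23). Of the tested genes, 1 was higher and 1 lower without overlap in each of the HSP90, J-domain and HSP70 co-chaperone lists. These counts were 1 and 2 in the mitochondrial list and 0 and 0 in the list of other HSP70 and HSP110 genes. Over all genes the shares were 15.7% higher and 7.76% lower.

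Among the other small heat shock proteins 4 of 9 were tested, with a median of 0.47. It was 0.22 over all 9 without the filter on low values. The tested genes were unlike, since *Hspb6* had a log2 fold change of 0.01 and *Hspb11* -0.16, below *Cryab* and *Hspb8*. Of the 4, 2 were higher without overlap and 1, *Hspb11*, was lower, against 15.7% and 7.76% of all genes. *Cryab*, the alpha B crystallin of lens and muscle, stood at 29.04, 17.57 and 11.53 TPM in shST3GAL3 tumours, against 9.58, 5.05 and 6.81 TPM in shControl tumours (log2 fold change 1.27, SE 0.35, limma adjusted p = 0.38). *Hspb8*, which works with *Bag3*, stood at 18.56, 9.74 and 6.02 TPM in shST3GAL3 and 5.55, 4.2 and 5.25 TPM in shControl tumours (0.93, SE 0.35). The list median was 0.34 without shST3GAL3 1. Unlike *Hspb1*, both were ordered 1, 2, 3 within the shST3GAL3 tumours. The summed fibroblast, endothelial, macrophage, T and NK cell and adipocyte markers had the same order. The skeletal muscle markers summed to 5.1, 367.6 and 70.4 TPM in the shST3GAL3 tumours and to 110.3, 3.8 and 23.1 TPM in shControl tumours, which is another order. The part of cell content in these values was not tested.

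The CCT chaperonin, which folds actin and tubulin, and its partner prefoldin had a median of -0.12 over 14 genes, 12 of them negative. Over all 14207 tested genes, 6726 were negative and 7481 positive. The prefoldin genes *Pfdn4* (38.1 ± 4.56 TPM in shST3GAL3 and 50.1 ± 5.38 TPM in shControl tumours), *Vbp1* (36.0 ± 6.55 TPM in shST3GAL3 and 49.8 ± 6.13 TPM in shControl tumours) and *Pfdn1* (89.8 ± 13.4 TPM in shST3GAL3 and 113 ± 2.39 TPM in shControl tumours) had the smallest p, with no overlap between groups of n = 3 (SD). In this list 4 of 14 genes were lower without overlap, against 7.76% of all genes. The list median was -0.32, -0.08 and 0.01 in shST3GAL3 1, 2 and 3, and the median fold change was -0.03, with 9 of 14 negative, without shST3GAL3 1. The ER chaperones had a median of 0.07 over 15 genes, 13 of them positive, and 0.31, 0.07 and -0.06 in shST3GAL3 1, 2 and 3. Without shST3GAL3 1 the median fold change was 0, with 7 of 15 positive, and after quantile normalization 8 of 15 were positive. *Calr*, the ER lectin calreticulin, stood at 738.94, 609.61 and 573.38 TPM in shST3GAL3 and 553.07, 566.18 and 484.56 TPM in shControl tumours (log2 fold change 0.26, SE 0.12). *Hyou1* and *Dnajb11*, 2 partners of the ER HSP70, also had no overlap (0.16 and 0.26). With *Calr* these were the 3 of 15 genes higher without overlap, against 15.7% of all genes.

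**Figure D4:**
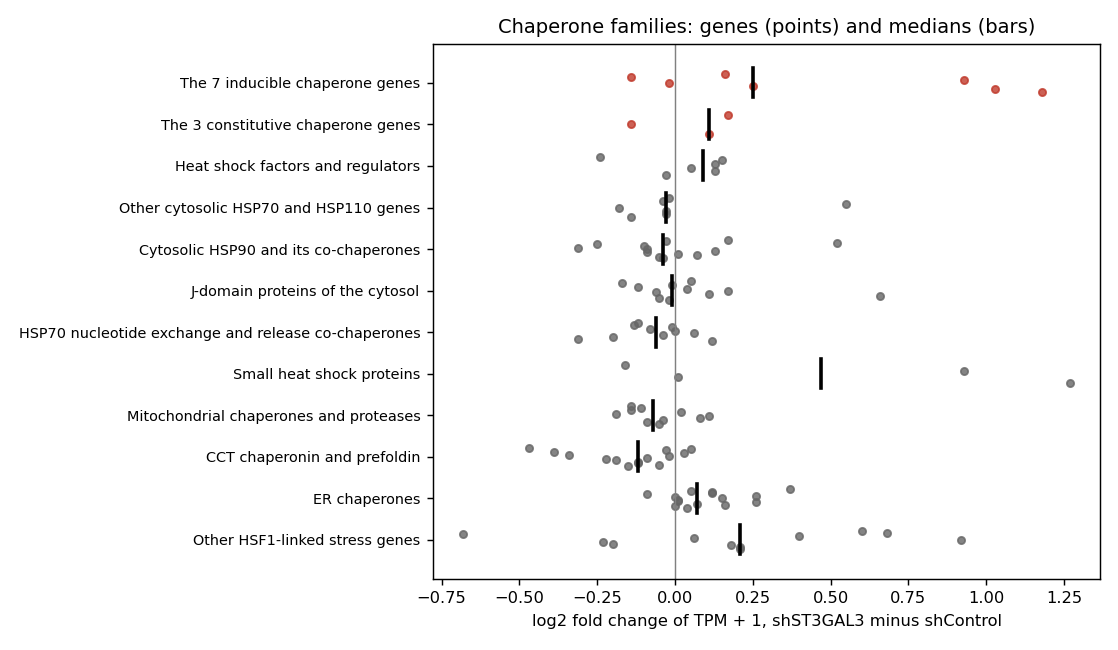
Log2 fold change of TPM + 1, shST3GAL3 minus shControl, of each tested gene (points) and its list median (black bars), for the 10 chaperone genes in red and related families in grey. Medians of the HSP90, J-domain, HSP70 co-chaperone and mitochondrial lists lie between -0.07 and -0.01. That of the other small heat shock proteins is 0.47, over 4 genes from -0.16 to 1.27.

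Other genes linked to HSF1 or general stress had a median of 0.21, with 8 of 11 positive, against 7481 of all 14207 tested, and 0 called. Without shST3GAL3 1 the median was 0.10, with 7 of 11 positive, and with library weights it was 0.11. *Ubb*, a polyubiquitin gene, stood at 2248.47, 2363.76 and 2271.75 TPM in shST3GAL3 and 2050.37, 2041.92 and 1857.75 TPM in shControl tumours (log2 fold change 0.21, SE 0.07, limma adjusted p = 0.38). *Hmox1*, the heme-degrading enzyme of oxidative stress, was also highest in shST3GAL3 1, at 196.48, 68.05 and 75.10 TPM in shST3GAL3 and 57.45, 53.26 and 46.88 TPM in shControl tumours (0.92, SE 0.39). *Mrpl18* and *Gem* were lowest in shST3GAL3 1. *Mrpl18* stood at 56.28, 72.52 and 66.45 TPM in shST3GAL3 and 77.71, 72.05 and 78.91 TPM in shControl tumours (-0.23, SE 0.11). *Gem* stood at 52.14, 141.02 and 113.61 TPM in shST3GAL3 and 161.7, 141.5 and 151.94 TPM in shControl tumours (-0.68, SE 0.34). The immediate early genes, which are transcribed soon after a stimulus, had a median of 0.27 over 11 genes, and 0.43, 0.15 and 0.09 in shST3GAL3 1, 2 and 3, against -0.01, -0.06 and 0.07 in shControl 1, 2 and 3. The median fold change was 0.15, with 8 of 11 positive, both without shST3GAL3 1 and with library weights. Of these genes, *Zfp36* stood at 44.09, 29.06 and 35.64 TPM in shST3GAL3 and 23.24, 22.27 and 26.68 TPM in shControl tumours (0.56), and encodes a protein that destabilises cytokine mRNA.

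The summed fibroblast, endothelial, macrophage and T and NK cell markers were also highest in shST3GAL3 1, although 4 of the 8 T and NK genes (*Cd3d*, *Cd3g*, *Cd8a* and *Nkg7*) were highest in shST3GAL3 2. In shST3GAL3 1, 2 and 3 the 8 fibroblast markers summed to 6527.9, 1872.8 and 1284.2 TPM, against 692.3 to 1104.1 TPM in shControl tumours. For the 8 endothelial markers the sums were 245.3, 109.2 and 93.2 TPM, against 48.2 to 66.8 TPM in shControl tumours. Macrophage markers (8 genes) summed to 2349.6, 1782.6 and 1327.1 TPM in shST3GAL3 and 1113.0 to 1324.4 TPM in shControl tumours, and T and NK cell markers (8 genes) to 149.3, 138.3 and 71.3 TPM in shST3GAL3 and 60.3 to 88.1 TPM in shControl tumours. The groups did not overlap for 7 of the 8 fibroblast, 8 endothelial, 4 macrophage and 1 of the T and NK markers, against 15.7% of all genes higher, and no gene of these lists was at 0 throughout. The epithelial markers, with *Muc16* the single one at 0 throughout, summed to 1782.1, 2702.7 and 3213.7 TPM in shST3GAL3 and 3209.2 to 3690.3 TPM in shControl tumours. Nearly all of this sum is *Krt8*, *Krt18* and *Krt19*, with log2 fold changes of -0.33, -0.43 and -0.66, while the other 3 tested genes, *Cdh1*, *Wt1* and *Msln*, had 0.46, 0.34 and 0.01. The adipocyte markers (6 genes, 2 tested) summed to 93.9, 74.4 and 22.1 TPM in shST3GAL3 and 7.0 to 17.9 TPM in shControl tumours. Fibroblast markers and *Hspa1a* both peaked in shST3GAL3 1, but *Hspa1a* was lower in shST3GAL3 2 than in 3, whereas the fibroblast sum was higher. In bulk tissue, a change in the share of a cell type and a change of RNA per cell cannot be told apart, and the part of cell content in these chaperone values was not tested.

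**Figure D5:**
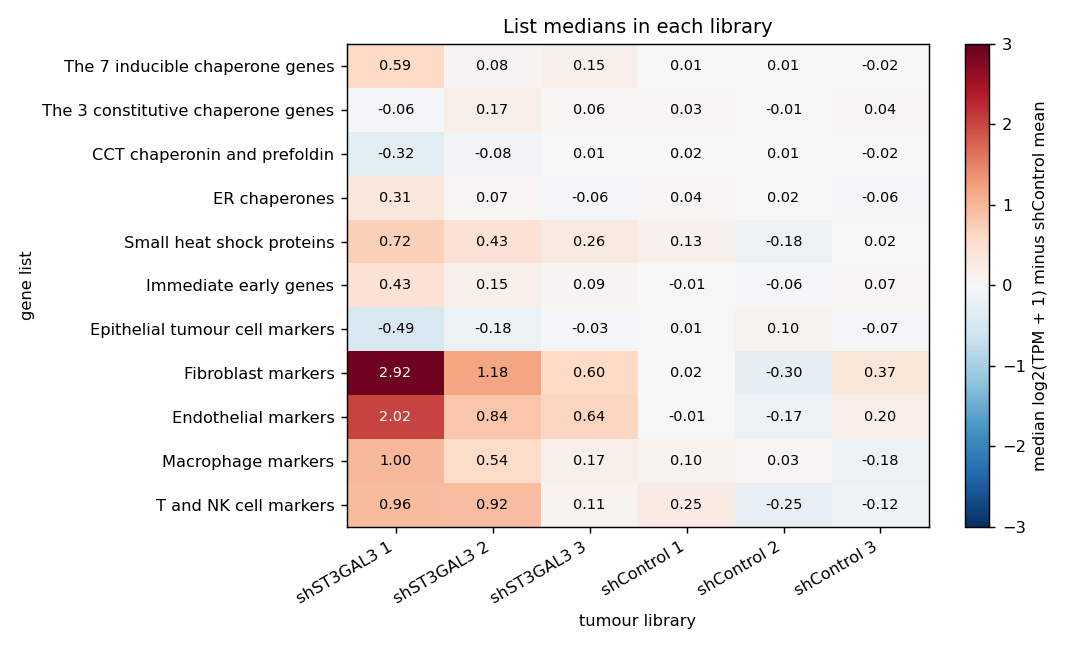
Median over the genes of each list (rows) of log2(TPM + 1) minus the shControl mean, in each library (columns, 3 shST3GAL3 left of 3 shControl), with values printed in the cells. The inducible chaperones reach 0.59 in shST3GAL3 1 and the fibroblast markers 2.92, while the constitutive chaperones stay between -0.06 and 0.17.

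The genes most like the mean of the inducible chaperones over the 6 libraries were *Itgb3*, *Ggcx*, *Rgs3*, *Zc3h12a* and *Dusp1*, by Pearson r of log2(TPM + 1) with the mean of the 7 centred genes (r = 0.995 to 0.999). The comparison covered 10127 genes with a mean of at least 5 TPM, and 296 of them had an r above 0.95. All 5 had their highest value in shST3GAL3 1. *Zc3h12a* stood at 17.98, 7.0 and 8.68 TPM in shST3GAL3 and at 6.17, 6.18 and 6.06 TPM in shControl tumours. The inducible genes did not share 1 pattern. *Hspa1a* had an r of 0.99 with *Hspa1b*, 0.98 with *Dnajb1*, 0.79 with *Hspb1* and 0.67 with *Bag3*. Its r was 0.21 with *Hsph1* and -0.7 with *Hsp90aa1*. With the constitutive genes, the r of *Hspa1a* was 0.83 for *Hspe1*, -0.28 for *Hspa8* and -0.97 for *Hspd1*. All these r include the high *Hspa1a* value of shST3GAL3 1 and were not computed without it. Reads may also be divided between *Hspa1a* and *Hspa1b*. For the mean of the 3 constitutive genes the most alike were *Rnaseh1*, *Zmynd11*, *Nt5dc3*, *Ankrd50* and *Akap10* (r = 0.978 to 0.996), with 29 genes above 0.95. This mean mixes unlike genes, with an r of -0.84 for *Hspd1* with *Hspe1*. The r of *Hspa8* was 0.33 with *Hspd1* and -0.06 with *Hspe1*. With 6 libraries and this many genes these values are descriptions.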

How the data were processed

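RNA sequencing of 6 tumours was analysed, 3 shST3GAL3 and 3 shControl, grouped by title. Per the labels, total RNA was isolated with TRIzol, cleared of genomic DNA and sequenced on standard Illumina libraries. The authors deposited TPM per gene, with 2 decimals. RSEM, HISAT, fastp and the build GRCm39 appear, without versions, in the submitters' processing notes; the annotation release and the strand of counting were not given in the sources used here. Depth is unknown, so precision rests on n = 3 per group. An exact permutation test of 3 against 3 cannot go below p = 0.1.

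Genes with at least 1 TPM in 3 libraries were fitted with limma 3.58.1 in R 4.3.3 (trend, group alone) on log2(TPM + 1), with Benjamini-Hochberg adjustment over all 14207 and a threshold of 0.05. A log2 fold change is on that scale and understates changes of low genes. The 10 genes and 18 further lists (175 genes) were chosen with earlier results of these data known. Named were the 10 genes, St3gal3, Hsp90ab1, Hsf1, genes among the 3 with the smallest p of each list, and the 5 most alike. Further markers, Gem, Hspb6, Gm1943 and Gm15459 were named after their values were seen. Same-numbered libraries deviated from their group means with correlations of 0.014, -0.08 and 0.04, so numbers were not taken as pairs. Transcripts of GENCODE M21 (GRCm38) were compared with blastn 2.17.0. Alternatives were another pseudocount, other filters, scalings, library weights, a replicate block and leaving out each library; summing near-identical copies was added after seeing the data.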

Additional observations from a re-analysis of the deposited data

How the results depend on the processing

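Of 130 fold changes of the 10 chaperone genes under 15 alternatives, 127 kept their direction and 3 reversed. *Hsph1* was 0.055 without shST3GAL3 3 and 0.095 without shControl 1 (range over left-out libraries -0.102 to 0.095), and *Hsp90aa1* was 0.016 with library weights. The cause was not tested. The number of these genes called stayed at 0 under every alternative run, with adjusted p from 0.224 to 0.974 (limma). At a minimum of 5 TPM, *Hspa1a* and *Hspa1b* were not tested. Over all genes, the count higher in shST3GAL3 was 0; it was 1 with a pseudocount of 0.1, 5 with library weights and 0 to 2 without 1 library. The count lower was 1; it was 3 with library weights and 1 to 2 without 1 library. At an unadjusted p under 0.05, 1305 genes were higher and 537 lower, 969 and 821 with median-ratio scaling and 880 and 960 with quantile normalization, for medians over all genes of 0.013, -0.005 and -0.046 (log2). The replicate block, with the numbers sharing no pairing in the labels, left 0 of the 10 called (log2 fold change of *Hspb1* 0.929, adjusted p = 0.332), and 0 genes higher and 1 lower. The inducible median ranged from 0.144 to 0.338 and the constitutive median from 0.054 to 0.129 without 1 library. The ratio difference of *Hspa1a* plus *Hspa1b* to *Hspa8* ranged from 0.23 to 1.777, and that of *Hsp90aa1* to *Hsp90ab1* from -0.234 to 0.015. Depth is unknown, so the low values of *Hspa1a* and *Hspa1b* carry an unknown counting error.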
